A study of Rattus norvegicus with 16 samples.

Results

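The vascular and serum early response genes are 10 genes listed by symbol: Apold1, Ccn1, Klf2, Klf4, Klf6, Klf10, Ier2, Btg2, Zfp36 and Atf3. A probe set (called a probe here) carried the symbol of 9 of them, among 15037 named genes on the array, and each of the 9 had 1 probe. The expression of Btg2 was not analysed here. The members were chosen by symbol with their differences between each anesthetic and its control on these arrays already known, so those differences are given as a description, with no p-value, and counts of calls among them stand beside the share over all genes and support nothing. The differences between brain regions were not used in the choice and were tested. The arrays tested include those of sevoflurane, so a response known beforehand can enter a region difference. The region tests are therefore also given without the sevoflurane arrays.

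The signals came from 16 Affymetrix arrays that covered 4 brain regions under 4 treatments, with a single array per combination, in male Wistar rats aged 8 to 10 weeks. The regions were the lateral habenula (LHb) and medial habenula (MHb), which form a small nucleus of the epithalamus, and 2 hindbrain nuclei, the medial vestibular nucleus (MVe), which serves balance, and the solitary nucleus (Sol), which receives visceral input. Rats received for 60 min either the inhaled anesthetic sevoflurane at 2.4%, O2 as its control, the intravenous anesthetic propofol, or Intralipos, a 10% lipid emulsion given as the control of propofol. Propofol and Intralipos were both infused at 36 mg/kg/hr following a bolus of 10 mg/kg, and oxygen at 40% and 6 L/min was given during the treatment. The tissue was cut out by laser from frozen Nissl-stained sections, so each sample held every cell type of its region, vessels included. The labels do not say which rats, or how many, went into a sample. In such tissue a lower signal may come from fewer cells of a type or from less RNA per cell, and these cannot be told apart.

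Early response genes are transcribed within minutes of a stimulus by transcription factors that are already present in the cell, before any new protein is made. Growth factors in serum act on them through serum response factor (SRF), which binds CArG boxes, and calcium and cyclic AMP act through CREB, which binds the cyclic AMP response element (CRE). In blood vessels a part of these genes answers to the flow of blood and to stretch: KLF2 and KLF4 are flow-responsive transcription factors of the endothelium, and Ccn1 is a target of the stretch-responsive coactivators YAP and MRTF. Apold1 was described as an early response gene of brain vascular endothelium. The other members are induced in many cell types and encode transcription factors (Klf6, Klf10, Atf3), a nuclear protein (Ier2), an antiproliferative protein (Btg2) and an mRNA decay factor (Zfp36).

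Proximal promoters of the members were searched for the letters that such factors bind, among other motifs. RefSeq's promoter table, on the GRCr8 assembly of the rat genome, held 7 of the 10 members and no entry for Klf2, Klf10 and Atf3. The 250 bases before the start site were searched on both strands for the CArG box, the CRE (TGACGTCA), its first bases alone (TGACG, which overlaps the CRE), AP-1 (TGANTCA), TEAD (GGAATG) and the TATA box (TATAAA). Apold1 and Ccn1 are shown because they had the largest differences under sevoflurane, Ier2 because its promoter holds a full CRE, and Zfp36 because its promoter holds a CArG box. The windows are chr4:169552349-169552598 on the plus strand for Apold1, chr2:237225690-237225939 on the minus strand for Ccn1, chr19:40399123-40399372 on the plus strand for Ier2 and chr1:92799109-92799358 on the minus strand for Zfp36. They read 5′ to 3′ toward the gene, and capitals mark the letters that match a searched motif.
Apold1: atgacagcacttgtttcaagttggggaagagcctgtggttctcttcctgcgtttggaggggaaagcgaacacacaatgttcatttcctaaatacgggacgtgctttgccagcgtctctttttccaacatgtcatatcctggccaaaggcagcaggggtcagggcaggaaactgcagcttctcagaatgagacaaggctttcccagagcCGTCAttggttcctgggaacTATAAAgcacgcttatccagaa
Ccn1: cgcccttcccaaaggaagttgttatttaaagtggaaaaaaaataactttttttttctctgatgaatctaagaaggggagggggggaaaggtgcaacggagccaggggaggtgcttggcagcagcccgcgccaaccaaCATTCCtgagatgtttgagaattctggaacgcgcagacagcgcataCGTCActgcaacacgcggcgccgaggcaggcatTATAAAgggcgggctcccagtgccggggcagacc
Ier2: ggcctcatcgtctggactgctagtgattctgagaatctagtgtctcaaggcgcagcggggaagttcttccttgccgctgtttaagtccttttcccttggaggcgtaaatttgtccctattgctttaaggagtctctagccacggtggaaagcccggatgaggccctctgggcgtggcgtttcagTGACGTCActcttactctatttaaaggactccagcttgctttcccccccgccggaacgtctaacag
Zfp36: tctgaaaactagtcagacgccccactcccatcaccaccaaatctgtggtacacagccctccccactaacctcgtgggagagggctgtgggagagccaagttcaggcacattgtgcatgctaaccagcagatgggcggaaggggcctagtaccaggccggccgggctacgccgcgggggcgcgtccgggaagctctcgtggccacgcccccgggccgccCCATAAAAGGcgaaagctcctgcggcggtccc

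The Apold1 window has a TATA box starting 22 bases before the start site and, on the other strand, the TGACG motif (read as CGTCA) at 42 bases. This start site lies inside the annotated span of the gene. The Ccn1 window has a TATA box at 34 bases, CGTCA at 67 bases and the TEAD motif, read as CATTCC, at 113 bases before the start. Ier2 has the CRE at 66 bases and Zfp36 the CArG box CCATAAAAGG at 32 bases. Among the members not shown, Btg2 has a CRE at 201 bases, Klf6 a CArG box at 201 bases and Klf4 TATA letters only. The Klf4 window, like that of Apold1, lies inside the annotated span of its gene. A CArG box was found in 2 of the 7 members and in 1.5% of all 33469 promoters of this length, and a CRE in 2 of 7 and 1.59%. TGACG was found in 4 of 7 and 18.2%, the TATA box in 3 of 7 and 12.9%, TEAD in 1 of 7 and 12.1%, and AP-1 in 0 of 7 and 6.34%. These are matches of letters in a short window and say nothing of which factor acts there.

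A few properties of the arrays bear on the values. The mean over all probes was 7.20 to 7.21 on the sevoflurane and O2 arrays and 6.97 to 6.99 on the propofol and Intralipos arrays, so both sets look separately normalized and no level was tested across them. The MVe array of the O2 set stood apart, with an interquartile range over genes of 5.14 against 5.40 to 5.55 on the other 7 arrays of its set, so results under sevoflurane are also given without MVe. The dissections were checked against region markers. Of the measured markers, 9 of 10 for MHb, 10 of 12 for Sol and 7 of 9 for MVe were highest in their own region. For LHb this held for 1 of 7, and the median marker signal there was 8.25 against 7.85 in the other regions. The mean of the same 7 markers was highest in LHb under each treatment, at 10.54 against 8.60 to 9.37 under O2. MHb markers averaged 11.34 in LHb under O2, 11.57 under sevoflurane, 10.43 under Intralipos and 10.92 under propofol. In the propofol arrays they averaged 8.69 in Sol and 6.82 in MVe. Of 12 choroid plexus and ependymal markers, 5 were at least 2-fold higher under propofol in Sol and 5 in MVe. Under sevoflurane it was 0 in each. The marker Ttr differed by 6.10 in Sol under propofol and by -2.92 there under sevoflurane. The arrays of a pair may thus differ in tissue, and its part in the members' differences was not tested.

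Under sevoflurane Apold1, Ccn1 and Klf2 had the largest mean differences of the 9 members. Apold1 was 3.88-fold higher than under O2 as a mean of the 4 regions, Ccn1 3.41-fold and Klf2 1.82-fold, and these 3 members were higher in 4 of 4 regions, as were 7.18% of all genes. The remaining 6 members had mean differences of 0.10 to 0.60, and 5 of them, all but Zfp36, had their largest difference in MVe. Under propofol no member differed from Intralipos by as much as 2-fold in any region, which 7.43% of all genes did in at least 1 region.

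**Figure D1:**
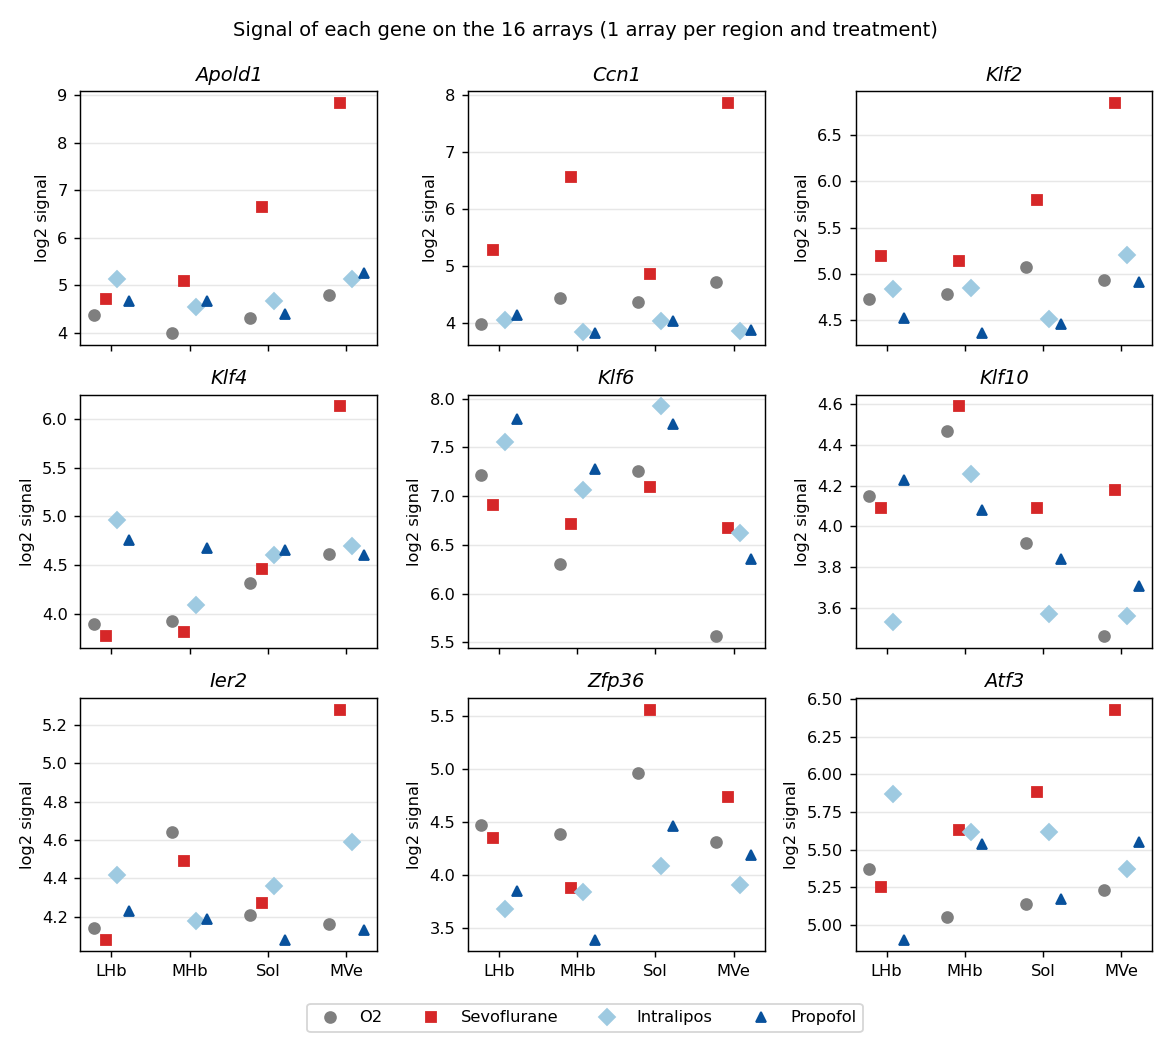
Log2 signal of the 9 measured genes on all 16 arrays, by region (x axis) and treatment (symbols), with a separate vertical scale for each gene; each symbol is 1 array. The sevoflurane arrays of Apold1, Ccn1 and Klf2 lie above their O2 arrays in all 4 regions, from 4.71 to 8.84 against 4.0 to 4.79 for Apold1.

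Apold1 encodes an apolipoprotein L domain protein of endothelial cells. Its log2 signal under O2 was 4.38 (LHb), 4.0 (MHb), 4.32 (Sol) and 4.79 (MVe). Under sevoflurane it was 4.71, 5.10, 6.66 and 8.84 in the same order. The sevoflurane arrays were graded, with MVe highest, and only the LHb sevoflurane array fell within the range of the O2 arrays. The differences were 0.32, 1.10, 2.34 and 4.05 on the log2 scale, with a mean of 1.95 ± 1.62 (SD, n = 4 regions). The MVe difference is 16.54-fold. Without MVe the mean was 1.26 ± 1.02 (SD, n = 3). Among the 15037 genes its mean difference had rank 4 from the top.

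Ccn1 encodes a secreted matricellular protein that binds integrins on vascular and other cells. Its log2 signal under O2 was 3.97 (LHb), 4.44 (MHb), 4.37 (Sol) and 4.71 (MVe), and under sevoflurane 5.28, 6.56, 4.85 and 7.86. Every sevoflurane array lay above every O2 array. The differences were 1.31, 2.13, 0.48 and 3.15, with a mean of 1.77 ± 1.14 (SD, n = 4) and a rank of 6 from the top. Without MVe the mean was 1.31 ± 0.82 (SD, n = 3). The order of the regions was not that of Apold1: Sol had the smallest difference for Ccn1 and the next to largest for Apold1.

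Klf2 and Klf4 encode the flow-responsive zinc-finger factors of endothelium. Klf2 read 4.73 (LHb), 4.78 (MHb), 5.07 (Sol) and 4.93 (MVe) under O2, and 5.19, 5.14, 5.80 and 6.85 under sevoflurane, again without overlap. Its differences were 0.46, 0.35, 0.74 and 1.93, with a mean of 0.87 ± 0.72 (SD, n = 4) and of 0.52 ± 0.20 (SD, n = 3) without MVe. For Klf4 MVe alone stood out. It read 3.90, 3.93, 4.32 and 4.62 under O2 and 3.77, 3.82, 4.46 and 6.13 under sevoflurane, so 3 of its sevoflurane arrays fell within or below the O2 range. Its differences were -0.13, -0.12, 0.14 and 1.51, with a mean of 0.35 ± 0.78 (SD, n = 4), and the mean without MVe was -0.03 ± 0.15 (SD, n = 3). Of the members, 2 of 9 (Ccn1 and Klf2) had every sevoflurane array above every O2 array, as had 0.466% of all genes.

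Klf6 and Klf10 encode further KLF factors, of which Klf10 was first known as a TGF-beta-inducible early gene. Klf6 read 7.22, 6.30, 7.26 and 5.56 under O2 in LHb, MHb, Sol and MVe, and 6.91, 6.71, 7.09 and 6.67 under sevoflurane. The groups overlapped, and the largest gap was the low O2 value in MVe. The differences were -0.32, 0.40, -0.17 and 1.12, with a mean of 0.26 ± 0.65 (SD, n = 4). Klf10 read 4.15, 4.47, 3.92 and 3.46 under O2 and 4.09, 4.59, 4.09 and 4.18 under sevoflurane. Its differences were -0.06, 0.12, 0.18 and 0.72, with a mean of 0.24 ± 0.34 (SD, n = 4), and here too MVe under O2 was the lowest array of the 8. Without MVe the means were -0.03 ± 0.38 for Klf6 and 0.08 ± 0.12 for Klf10 (SD, n = 3).

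Atf3 encodes a stress-induced transcription factor of the ATF/CREB family. It read 5.37, 5.05, 5.14 and 5.23 under O2 and 5.25, 5.63, 5.88 and 6.43 under sevoflurane. The differences were -0.13 (LHb), 0.58 (MHb), 0.74 (Sol) and 1.21 (MVe), with a mean of 0.60 ± 0.55 (SD, n = 4) and of 0.40 ± 0.46 (SD, n = 3) without MVe. All sevoflurane arrays but that of LHb lay above the O2 arrays.

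Ier2, whose promoter holds the CRE shown above, encodes a small nuclear protein that is induced early. It read 4.14, 4.64, 4.21 and 4.16 under O2 and 4.08, 4.49, 4.27 and 5.28 under sevoflurane. Only the MVe sevoflurane array left the O2 range upward, with a difference of 1.12, and the other 3 differences lay between -0.15 and 0.06. The mean was 0.24 ± 0.59 (SD, n = 4) and, without MVe, -0.05 ± 0.11 (SD, n = 3). Zfp36, whose promoter holds the CArG box, encodes tristetraprolin, which binds AU-rich elements of cytokine mRNAs and speeds their decay. It read 4.47, 4.39, 4.96 and 4.31 under O2 and 4.35, 3.88, 5.56 and 4.74 under sevoflurane. Its differences were -0.12, -0.51, 0.60 and 0.42, of both signs and with overlapping groups, and the mean was 0.10 ± 0.51 (SD, n = 4). Differences of both signs over the 4 regions were seen in 6 of the 9 members. Apold1, Ccn1 and Klf2 were higher in 4 of 4 regions, as were 7.18% of all genes.

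Counted by region, 3 of 9 members were higher under sevoflurane in LHb, where 50.8% of all genes were, with a median of -0.06. In MHb 6 members were higher (49.3% of all genes, members' median 0.35), in Sol 8 (49.5%, median 0.48) and in MVe 9 (54.7%, median 1.21). Members at least 2-fold higher numbered 1 in LHb, against 0.539% of all genes, 2 in MHb (0.825% of all genes), 1 in Sol (0.705%) and 7 in MVe (1.97%). Over the mean of the 4 regions, 9 of 9 members were above 0, as were 52.8% of all genes, and the members' median was 0.35 against 0.01 for all genes. Without MVe, 5 of 9 were above 0, against 49.9% of all genes, with a median of 0.08. The limma fit with treatment and region as terms (adjusted p under 0.05) called 0 of 9 members and 0% of all genes in this contrast, where 751 of 15037 genes had an unadjusted p under 0.05. Without the LHb sevoflurane array it called 1 member, Apold1, at a mean difference of 2.51, and 0.0532% of all genes (8 genes). Since the members were listed with these responses known, the counts describe the list and support nothing further.

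**Figure D2:**
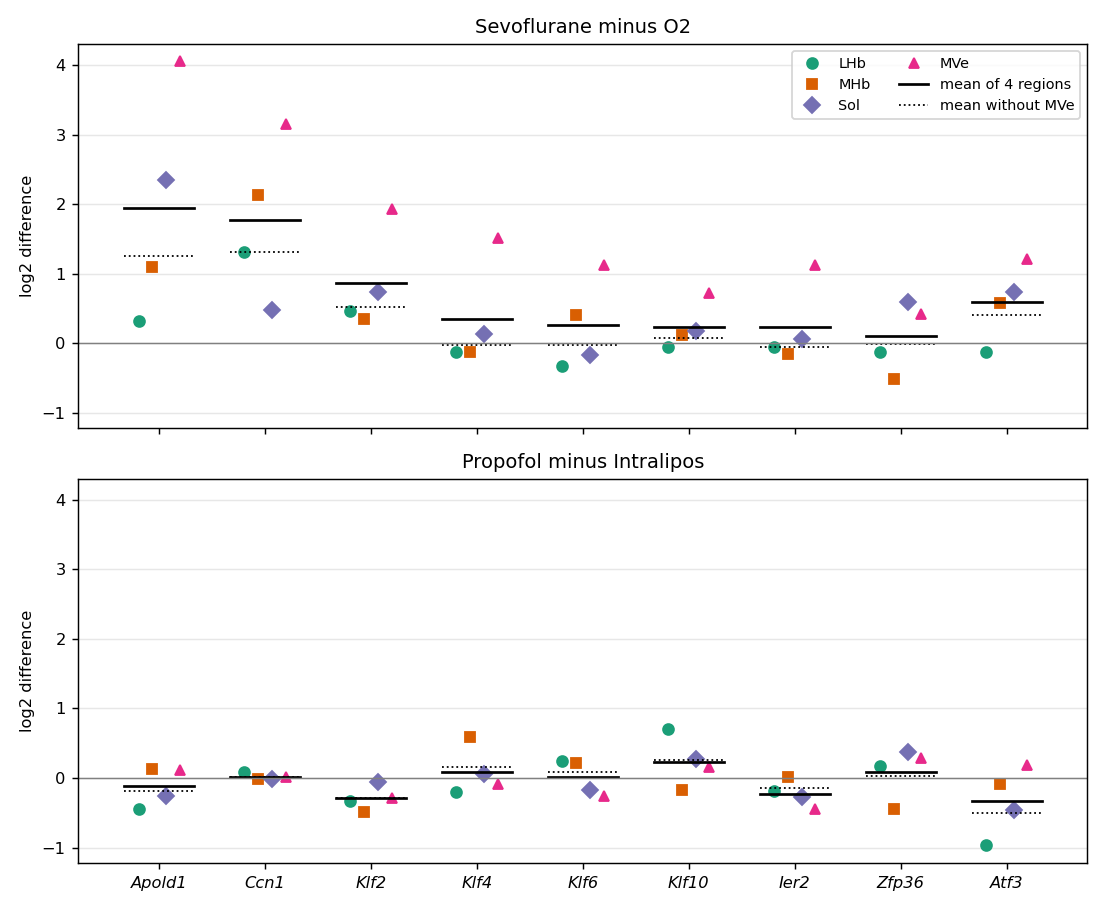
Log2 difference of each gene from its own control in each region, for sevoflurane minus O2 (top) and propofol minus Intralipos (bottom), on 1 vertical scale; each symbol is 1 array minus 1 array, solid lines are means of 4 regions and dotted lines means without MVe. MVe under sevoflurane gives the highest value for 8 of the 9 genes, and all propofol values lie between -0.97 and 0.70.

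Under propofol the members' differences were small and of both signs. Apold1 read 5.13, 4.55, 4.67 and 5.14 under Intralipos and 4.68, 4.68, 4.41 and 5.26 under propofol, with a mean difference of -0.12 ± 0.29 (SD, n = 4 regions). Ccn1 read 4.05, 3.83, 4.03 and 3.85 under Intralipos and 4.14, 3.82, 4.03 and 3.87 under propofol. Its mean difference was 0.02 ± 0.05, the narrowest spread of the 9 members. Klf2 read 4.84, 4.85, 4.51 and 5.20 under Intralipos and 4.52, 4.36, 4.46 and 4.91 under propofol. It was lower in 4 of 4 regions, by a mean of -0.29 ± 0.18, which held for 1 of 9 members and for 6.68% of all genes.

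The other KLF members had means within 1 SD of 0. Klf4 read 4.96, 4.09, 4.61 and 4.70 under Intralipos and 4.76, 4.68, 4.66 and 4.61 under propofol, with the widest gap in MHb (0.59) and a mean of 0.09 ± 0.35. Klf6 read 7.55, 7.06, 7.92 and 6.62 under Intralipos and 7.79, 7.28, 7.74 and 6.35 under propofol. It was higher in both habenular regions and lower in both hindbrain regions, with a mean of 0.01 ± 0.26. Klf10 read 3.53, 4.26, 3.57 and 3.56 under Intralipos and 4.23, 4.08, 3.84 and 3.71 under propofol, with its widest gap in LHb (0.70) and a mean of 0.23 ± 0.37.

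Ier2 read 4.42, 4.18, 4.36 and 4.59 under Intralipos and 4.23, 4.19, 4.08 and 4.13 under propofol. It was lower in 3 of 4 regions, by a mean of -0.23 ± 0.19, and in MVe by -0.45, where it was higher by 1.12 under sevoflurane. Zfp36 read 3.68, 3.84, 4.09 and 3.91 under Intralipos and 3.85, 3.39, 4.46 and 4.19 under propofol, with a mean of 0.09 ± 0.37. Its MHb value was the lower under both anesthetics, by -0.44 here and by -0.51 under sevoflurane. Atf3 read 5.87, 5.62, 5.62 and 5.37 under Intralipos and 4.90, 5.54, 5.17 and 5.55 under propofol, with a mean of -0.33 ± 0.50 and its widest gap in LHb (-0.97). The propofol and Intralipos arrays overlapped for 9 of 9 members, while 1.25% of all genes had no overlap. In MVe, where sevoflurane gave its largest values, the propofol differences of the members ran from -0.45 to 0.28 with a median of 0.02. Over the mean of 4 regions, 5 of 9 were above 0, as were 52.3% of all genes, and the limma fit called 0 of 9 members and 0.02% of all genes (3 genes, with 1040 at an unadjusted p under 0.05).

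Each anesthetic has its own control arrays, so both differences can be set against each other region by region. The sevoflurane difference minus the propofol difference was 2.07 for Apold1, 1.74 for Ccn1, 1.16 for Klf2 and 0.93 for Atf3 as means of 4 regions, positive in 4 of 4 regions for each of these 4 members and for 6.55% of all genes. Atf3 had the narrowest spread among these, with 0.84 (LHb), 0.66 (MHb), 1.20 (Sol) and 1.02 (MVe) (SD 0.23). For Ier2, Klf4 and Klf6 the mean was 0.47, 0.26 and 0.25, positive in 3 of 4 regions. For Klf10 and Zfp36 it was 0.01 and 0.00. These values come from the contrasts that the list was made from and are a description.

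Levels between regions were tested over the 16 arrays, with treatment as a term and the 4 treatments in the place of replicates. Klf6 gave the largest difference between regions that passed the test. Its log2 signal averaged 7.50 ± 0.39 in Sol, 7.37 ± 0.39 in LHb, 6.84 ± 0.43 in MHb and 6.30 ± 0.51 in MVe (SD, n = 4 treatments). It was higher in Sol than in MVe by 1.20 ± 0.19 (SE), or 2.30-fold (limma, adjusted p = 7.93e-05), in 4 of 4 treatments. The gap was 1.71 under O2, 0.42 under sevoflurane, 1.3 under Intralipos and 1.38 under propofol. Klf6 was also higher in LHb than in MHb by 0.53 ± 0.19 (limma, adjusted p = 0.0491), in 4 of 4 treatments. The Sol and MVe difference passed without any 1 of the 16 arrays, at 1.06 to 1.44. The habenular call passed only on leaving out the sevoflurane array of LHb, Sol or MVe, the MVe array of O2 or the MVe array of propofol, was lost in the other 11 cases, and gave an adjusted p of 0.129 after quantile normalization (limma, 0.0164 to 0.185 over the arrays left out). LHb and Sol, the neighbours at the top of this order, were not tested against each other. Sol and LHb read 7.26 and 7.22 under O2, 7.09 and 6.91 under sevoflurane, 7.92 and 7.55 under Intralipos, and 7.74 and 7.79 under propofol. Microglial markers, picked for this comparison after the values were seen, had the same order under O2, with a mean log2 signal over 10 genes of 8.47 in Sol, 7.49 in LHb, 6.84 in MHb and 6.66 in MVe. Their part in the Klf6 order was not tested.

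Zfp36 and Klf10 differed between habenula (LHb and MHb) and hindbrain (Sol and MVe) in opposite directions. Zfp36 was lower in the habenula by a log2 difference of -0.55 ± 0.13 (limma, adjusted p = 0.0031). Klf10 was higher there by 0.38 ± 0.11 (limma, adjusted p = 0.0122). Both signs held in 4 of 4 treatments for the mean of LHb and MHb against that of Sol and MVe. Single regions did not all follow. Klf10 under Intralipos read 3.53 in LHb, 3.57 in Sol and 3.56 in MVe. Zfp36 under O2 read 4.47 in LHb and 4.31 in MVe. Zfp36 averaged 3.87 in MHb, 4.09 in LHb, 4.29 in MVe and 4.77 in Sol, and Klf10 averaged 4.35 in MHb, 4.0 in LHb, 3.86 in Sol and 3.73 in MVe. These are dim signals. The means over the 16 arrays were 4.25 for Zfp36 and 3.98 for Klf10, against a median gene mean of 6.93. Of the 9 members, 8 lay below that median, so a filter on dim genes removed both Zfp36 and Klf10. Both calls held on leaving out each of the 16 arrays in turn, and without the 4 sevoflurane arrays (-0.39 with adjusted p = 0.0457, and 0.44 with adjusted p = 0.0231, limma). With treatment left out of the fit neither passed (limma, adjusted p = 0.0558 and 0.0527). Apold1 and Klf2 also passed, lower in the habenula by -0.86 ± 0.32 (limma, adjusted p = 0.0416) and -0.41 ± 0.16 (adjusted p = 0.045), but these gaps lay mostly in the sevoflurane arrays. The Apold1 call was lost on leaving out the sevoflurane array of any region, the O2 or Intralipos array of MHb or of Sol, 8 cases in all (limma, adjusted p 0.0232 to 0.111). With trend and robust variance the Apold1 call was lost (limma, adjusted p = 0.0665) and Klf4 was called (adjusted p = 0.0415), so the count stayed at 4. The Klf2 call was lost in 11 of 16 cases, namely the sevoflurane array of any region, the O2 array of LHb, MHb or Sol, the propofol array of MHb, Sol or MVe, and the Intralipos array of MVe (limma, adjusted p 0.0147 to 0.12). For Apold1 the gap was -2.84 under sevoflurane and between -0.36 and -0.07 under the other treatments. Without the sevoflurane arrays Apold1 gave -0.20 (limma, adjusted p = 0.284) and Klf2 -0.16 (adjusted p = 0.409).

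In all, 4 of 9 members were called between habenula and hindbrain, against 38.1% of all genes, 1 of 9 between LHb and MHb (28.5%) and 1 of 9 between Sol and MVe (35.2%), so none of these shares is a result about the list. Not called between habenula and hindbrain were Klf4 at -0.52 (limma, adjusted p = 0.0651), Klf6 at 0.20 (0.281), Ccn1 at -0.19 (0.648), Atf3 at -0.14 (0.514) and Ier2 at -0.09 (0.679). Without the sevoflurane arrays the counts were 2 of 9 (31.7% of all genes), 1 of 9 (24.1%) and 2 of 9 (29.2%). The added call between Sol and MVe was Apold1, lower in Sol by -0.60 ± 0.18 (limma, adjusted p = 0.0204). With all arrays that difference was -0.99 ± 0.45 (adjusted p = 0.101). Endothelial markers were likewise highest in MVe under each treatment, with a mean log2 signal of 8.66 there and 7.82 in Sol under O2. The part of vessel content in the Apold1 difference was not tested.

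**Figure D3:**
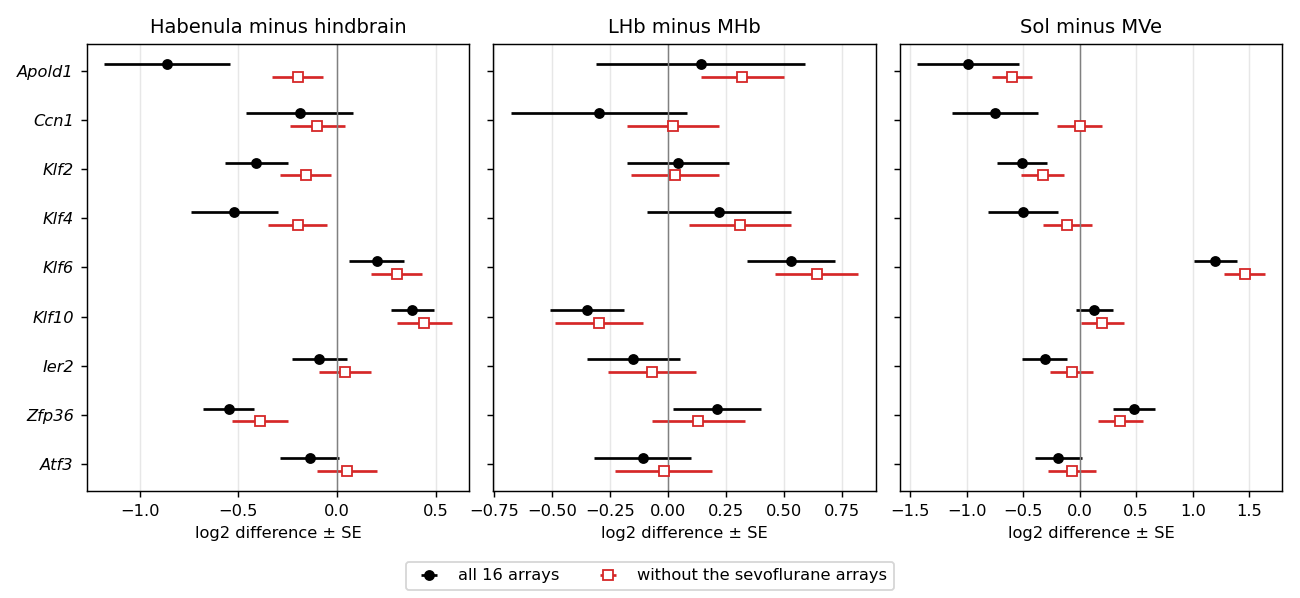
Fitted log2 difference ± SE of each gene between regions, over all 16 arrays (filled circles) and without the sevoflurane arrays (open squares); the 3 panels have different horizontal scales. Klf6 lies at 1.20 for Sol minus MVe with all arrays and at 1.46 without the sevoflurane arrays, while Apold1 moves from -0.86 to -0.20 for habenula minus hindbrain.

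Genes related to the members or known to act with them were read from lists. The limma fit called 0 genes of these lists in either direction under either anesthetic, so the counts below are of signs and describe the lists. Of 10 measured KLF genes that are no members, 7 were above 0 under sevoflurane (median 0.09, against 0.01 for all genes) and 3 under propofol (median -0.06). Klf3, which encodes a repressor, differed by 0.75, 0.45, 0.43 and 0.72 in LHb, MHb, Sol and MVe under sevoflurane, a mean of 0.59 ± 0.17 (SD, n = 4), and by a mean of -0.32 ± 0.25 under propofol. Of 23 close relatives of the remaining members (CCN, BTG/TOB, IER, ZFP36 and ATF families), 13 were above 0 under sevoflurane (median 0.09). Ccn2, the nearest relative of Ccn1 and also a YAP target, differed by 0.39 ± 0.36, against 1.77 for Ccn1.

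The SRF and MRTF list had 11 of 20 genes above 0 under sevoflurane (median 0.02) and 8 of 20 under propofol (median -0.02). Srf itself differed by 0.72 (LHb), 0.19 (MHb), 0.42 (Sol) and 1.75 (MVe) under sevoflurane, a mean of 0.77 ± 0.69 (SD, n = 4), and by -0.36 ± 0.97 under propofol. The light chain gene Myl9 differed by 0.56 ± 0.38 and the ternary complex factor Elk3 by 0.41 ± 0.73. The YAP and TEAD list had 10 of 14 above 0 (median 0.18) under sevoflurane and 5 of 14 (median -0.18) under propofol. In it Axl, a receptor kinase, differed by 0.38 ± 0.19 under sevoflurane and -0.46 ± 0.76 under propofol, and Ankrd1 by -0.31 ± 0.30 under sevoflurane.

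Of 15 endothelial genes downstream of KLF2 and KLF4, 7 were above 0 under sevoflurane (median -0.02), beside a mean of 0.87 for Klf2 and 0.35 for Klf4. Nos3, the endothelial nitric oxide synthase that KLF2 is known to induce, was lower in 4 of 4 regions by a mean of -0.51 ± 0.27 (SD, n = 4). Thbd, which encodes thrombomodulin and is another KLF2 target, differed by 0.26 ± 0.16 under sevoflurane. Under propofol Thbd differed by 0.37 ± 0.10, where Klf2 differed by -0.29, and 9 of the 15 genes were above 0 (median 0.11). Of 13 mRNAs that ZFP36 is known to destabilize, 9 were above 0 under sevoflurane (median 0.04). Ccl2, a chemokine, differed by 0.83, 1.89, -0.09 and 2.55 in LHb, MHb, Sol and MVe (mean 1.3 ± 1.16), and Il6 by -0.36 ± 0.56. The ATF4 and ATF3 stress list had 10 of 14 above 0 (median 0.09). There Phgdh differed by 0.28 ± 0.13 and Hmox1 by 0.26 ± 0.18.

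The p53 targets (5 of 10 above 0, median 0.02) and the hypoxia-responsive genes (6 of 12, median 0.01) had medians near that of all genes under sevoflurane. Within the p53 list Cdkn1a differed by 0.75 (LHb), 1.42 (MHb), -0.23 (Sol) and 1.37 (MVe), a mean of 0.83 ± 0.76. Immediate early genes outside the members, such as Fos and Egr1, had 31 of 40 above 0 under sevoflurane (median 0.29, and 0.23 without MVe) and 21 of 40 under propofol (median 0.04). Egr1 differed by 3.40 ± 1.55 under sevoflurane and by 1.90 ± 1.95 under propofol. Under sevoflurane and propofol, Nr4a1 differed by 2.69 ± 1.92 and 1.15 ± 1.36, Fos by 2.42 ± 1.86 and 1.23 ± 1.01, and Junb by 1.86 ± 0.96 and 0.90 ± 0.60. Sgk1, in the same list and picked after its values were seen, differed by 1.74 ± 0.93 under sevoflurane and by -0.83 ± 0.57 under propofol. Apold1 had 1.95 and -0.12.

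Cell type markers were read beside the MVe values, since MVe gave the largest differences of 8 members. In the MVe pair of sevoflurane and O2, 12 of 18 endothelial markers were above 0, with a median of 0.13 and a range from -0.44 to 1.12 (Tie1). Of 14 mural cell markers 9 were above 0 (median 0.08), and of 9 blood cell markers 6 (median 0.09). At least 2-fold higher were 1 of 18 endothelial, 0 of 14 mural and 0 of 9 blood markers, 7 of 9 members and 1.97% of all genes. The members were listed with these differences known, so their count beside the markers is a description and supports nothing. The part of vessel content in the MVe differences was not tested. The mean log2 signal of the endothelial markers ran from 7.24 to 8.66 over the O2 arrays and from 7.16 to 8.82 over the sevoflurane arrays. Other immediate early genes in the same pair had a median of 0.83 and 17 of 40 at least 2-fold higher. In the MVe pair of propofol and Intralipos 7 of 40 immediate early genes, up to 4.56 for Egr1, but 0 of 9 members were at least 2-fold higher, against 0.845% of all genes.

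**Figure D4:**
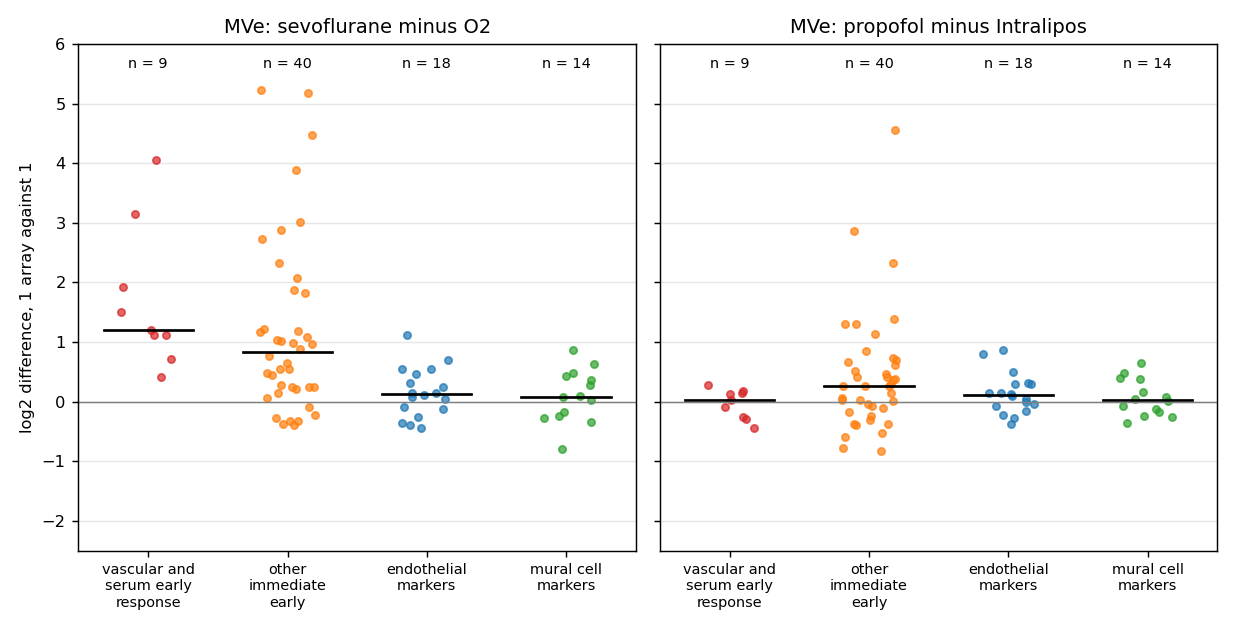
Log2 difference in MVe, 1 array against 1 array, for the 9 members, 40 other immediate early genes, 18 endothelial and 14 mural cell markers, under sevoflurane (left) and propofol (right); each point is a gene and bars are medians. Under sevoflurane the members' median is 1.21 and that of the endothelial markers 0.13, and under propofol the members lie between -0.45 and 0.28.

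How far the members varied together depended on 1 array pair. Over the 8 differences (4 regions, 2 anesthetics), Pearson's r between a member and the mean of the other members was 0.95 for Apold1, 0.95 for Klf2, 0.92 for Ier2, 0.79 for Ccn1 and Atf3, 0.77 for Klf4, 0.73 for Klf6, 0.43 for Klf10 and 0.24 for Zfp36. Without the MVe pair of sevoflurane and O2, with 7 differences left, it was 0.89 for Apold1, 0.81 for Klf2, 0.74 for Atf3, 0.49 for Ier2 and 0.35 for Ccn1, and between -0.33 and -0.06 for the other 4. Over the 36 pairs of members the median r was 0.61 with all 8 differences and 0.15 without that pair. The differences share arrays between genes, so these are descriptions of 8 points.

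Among 7511 other genes with a mean signal at or above the median, those most alike to the members' mean difference were Bcl2l1 (r = 0.98), Dcaf8 (0.97), Cttnbp2nl (0.94), Gatc, Nup214 and Tln1 (0.93 each), Adam11 and Igf1r (0.92 each). Of the 9 members, 8 had a mean signal below that median, so genes as dim as most members were not compared. Bcl2l1, which encodes the survival protein BCL-xL, differed by 0.08, 0.26, 0.30 and 0.60 in LHb, MHb, Sol and MVe under sevoflurane and by -0.00 to 0.13 under propofol. The members' own mean was 0.14, 0.44, 0.57 and 1.69 under sevoflurane and -0.10 to -0.03 under propofol. Without the MVe sevoflurane pair r was 0.95 for Bcl2l1 and 0.48 for Tln1, the lowest of the 8, which encodes the integrin-binding protein talin.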

How the data were processed

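The authors deposited 1 table of log2 signals for 16 arrays, which the submitters' processing notes tie to version 1.3.0 of Affymetrix Expression Console. The log2 scale was read from the values. For the scale, the summarization and the build, a statement was not given in the sources used here. Of 24834 probes, 94 were controls, 15049 had 1 gene symbol in the platform annotation, 0 had several and 9691 had none. The brightest probe was kept for each of 15037 genes.

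Each region and treatment had 1 array. limma 3.58.1 in R 4.3.3 (lmFit, eBayes, two-sided) was fitted to all genes with treatment and region as terms (9 residual degrees of freedom), with Benjamini-Hochberg adjustment over the 15037 genes and a threshold of 0.05. It was tested on simulated data. Replicates of a treatment were its 4 regions, and those of a region its 4 treatments. Regions of 1 rat may be counted as independent samples, so p-values may be too small. A ± is the SD over regions or treatments where so named, and otherwise the SE of the fit.

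The members, the lists and the rules were chosen with earlier results of these data known. All members were named, with up to 4 genes of each list by the absolute value of the mean difference. A few list genes chosen after their values were seen (Thbd, Sgk1 and the marker Tie1) and the 8 genes most alike in pattern were added. Alternatives were another variance model, quantile normalization, the mean of all probes, a filter on dim genes, treatment left out of the fit, only the 8 arrays compared, each array left out and, chosen after seeing the data, the sevoflurane or the MVe arrays left out. With 1 array a group, the number of arrays limits the precision.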

Additional observations from a re-analysis of the deposited data

Results flagged for a closer look

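In the groups of 4 arrays of 1 treatment, 36 were examined for an array far from the other 3, and about 1 in 20 such groups is marked by chance. Klf10 had such a value in MHb under Intralipos, 4.26 against a next value of 3.57. Ier2 had one in MHb under O2, 4.64 against 4.21.

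The Klf2 difference from control was above 0 in 4 of 4 regions under sevoflurane and below 0 in 4 of 4 under propofol, a gap of 1.16 on the log2 scale that was not tested. For 4 responses, both habenular regions lay on one side of 0 and both hindbrain regions on the other, and these gaps were not tested either. Under sevoflurane the habenula minus hindbrain gap was -0.95 for Klf4 (-0.12 against 0.83), -0.69 for Ier2 (-0.10 against 0.59) and -0.82 for Zfp36 (-0.31 against 0.51). Under propofol it was 0.45 for Klf6 (0.23 against -0.22).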

How the results depend on the processing

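Of the alternatives that left out no single array, 32 values of the counts and medians stayed within their bounds and 8 moved. The 4 members called between habenula and hindbrain became 2 with quantile normalization (38.3% of all genes called) and 2 without the sevoflurane arrays (31.7%), Zfp36 and Klf10 in both cases. They became 0 with treatment left out of the fit (28.9%) and 0 among genes at or above the median mean signal of 6.93 (62% of these), a filter that only Klf6 of the 9 members passed. With trend and robust variance they stayed 4 (38.8%), with Klf4 in the place of Apold1. The 1 member called between LHb and MHb became 0 with trend and robust variance (29.3% of all genes), with quantile normalization (29%) and with treatment left out (20.4%). Between Sol and MVe 1 became 2 without the sevoflurane arrays (29.2%). Without those arrays 3 uncalled differences changed sign, Atf3 (0.05) and Ier2 (0.04) between habenula and hindbrain and Ccn1 (0.02) between LHb and MHb.

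Leaving out each of the 16 arrays in turn gave 0 to 1 members called for sevoflurane minus O2 (0% to 0.0532% of all genes) and a median of 0.15 to 0.63. For propofol minus Intralipos it gave 0 called throughout (0% to 0.0333% of all genes) and a median of -0.23 to 0.08. It gave 2 to 5 called between habenula and hindbrain (35.4% to 37% of all genes), 0 to 1 between LHb and MHb (24.9% to 29.2%), and 1 to 2 between Sol and MVe (31.1% to 35.4%). The Apold1 call between habenula and hindbrain was lost in 8 of these fits and the Klf2 call in 11, while Klf4 was called in 4. Among region differences, those that changed sign, all uncalled, ranged from -0.41 to 0.09 for Ccn1 and -0.16 to 0.03 for Ier2 between habenula and hindbrain. Between LHb and MHb they ranged from -0.18 to 0.70 for Apold1, -0.28 to 0.08 for Atf3, -0.13 to 0.20 for Klf2 and -0.02 to 0.49 for Klf4, and between Sol and MVe from -0.38 to 0.02 for Atf3. Among the anesthetic differences, sevoflurane minus O2 ranged from -0.12 to 0.63 for Klf4 and -0.09 to 0.26 for Zfp36, and propofol minus Intralipos from -0.41 to 0.16 for Apold1, -0.23 to 0.27 for Ccn1, -0.09 to 0.35 for Klf4, -0.06 to 0.11 for Klf6 and -0.04 to 0.24 for Zfp36. The cause of these changes was not tested.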
